A study of Mus musculus with 8 samples.

Results

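The D cyclins, their 2 partner kinases and the main CDK inhibitors were followed at the RNA level in Ikaros-deficient and wild-type mouse thymocytes, each with an inhibitor of Notch activation or its vehicle. The 10 genes were Ccnd1, Ccnd2, Ccnd3, Cdk4, Cdk6, Cdkn1a, Cdkn1b, Cdkn1c, Cdkn2c and Cdkn2d. They were chosen by name, as all probe sets whose platform gene symbol was one of these, which gave 26 of the 45101 probe sets on the array and 10 of the 18193 genes tested. Single probe sets represented Cdkn1c, Cdkn2c and Cdkn2d, and the other 7 genes had more than 1.

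DN3 cells are early T cell precursors (lineage-negative, CD44-negative, CD25-positive). They were sorted from thymocytes grown on OP9 DL1, a stromal line made to display the Notch ligand Delta-like 1. The 4 groups, with 2 Affymetrix mouse arrays each, were IkL/L GSI, IkL/L DMSO, WT GSI and WT DMSO. IkL/L marks Ikaros-deficient mice and WT wild-type mice. GSI stands for the gamma-secretase inhibitor MRK-003, labelled as 5 mM, which blocks the cleavage that activates Notch receptors, and DMSO for its vehicle. Both were given for 16 h. The stroma, the ligand and the culture were shared by all groups. The labels used here describe neither the IkL/L allele, nor the age of the mice, nor whether animals were pooled, nor whether the 2 arrays of a group stand for different animals or cultures. The spread behind the p-values may therefore be technical.

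D-type cyclins bind CDK4 or CDK6, and the complexes phosphorylate RB and its relatives, which frees E2F factors to switch on genes for entry into S phase. INK4 proteins, among them p18INK4c (Cdkn2c) and p19INK4d (Cdkn2d), bind CDK4 and CDK6 and keep the cyclin out. CIP/KIP proteins, p21 (Cdkn1a), p27 (Cdkn1b) and p57 (Cdkn1c), bind whole cyclin-CDK complexes. In the mouse thymus cyclin D3 is known for its part in the expansion of immature thymocytes, and Notch signals are needed by DN3 cells.

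Checks of the arrays came first. Ikzf1, which encodes Ikaros, was at log2 values of 11.75 and 11.52 in IkL/L GSI, 11.14 and 11.19 in IkL/L DMSO, 12.18 and 11.95 in WT GSI, and 11.95 and 12.17 in WT DMSO. Where the probe set lies with respect to the IkL/L change in the gene is not given here, so it does not test the labels. Dtx1, a Notch target, lay between 7.04 and 7.96 on the GSI arrays and between 11.74 and 12.09 on the DMSO arrays. All 13 DN3 T cell markers measured were above the array median (5.25 to 5.33) on every array. Of these, Il2ra, the gene for the sort marker CD25, was at log2 values of 9.49 and 9.42 in IkL/L GSI, 11.69 and 11.57 in IkL/L DMSO, 9.73 and 9.47 in WT GSI, and 12.03 and 11.90 in WT DMSO. Ptcra, which encodes the pre-T cell receptor alpha chain, was at 8.42 and 8.37 in IkL/L GSI, 10.70 and 10.74 in IkL/L DMSO, 9.46 and 9.44 in WT GSI, and 11.20 and 10.99 in WT DMSO. Both were lower on every GSI array than on every DMSO array, and their part in the members' changes was not tested. Markers of OP9-like stroma were measured for 16 of 16 genes, and 10 of them were above the median on every array. Their mean log2 level was 7.64 and 7.16 in IkL/L GSI, 7.57 and 6.72 in IkL/L DMSO, 7.89 and 6.33 in WT GSI, and 7.15 and 6.53 in WT DMSO, higher on the array numbered 1 in all 4 groups. Myeloid and dendritic markers (13) averaged 6.33 and 6.31 in IkL/L GSI, 5.16 and 5.21 in IkL/L DMSO, 5.52 and 5.28 in WT GSI, and 5.07 and 4.77 in WT DMSO, with 5 of them below the median on all arrays. B cell markers (7 measured) averaged between 6.88 and 7.13 on the GSI arrays and between 6.49 and 6.62 on the DMSO arrays. The rise was not shared by all 7. Vpreb1 and Cd79b were higher on both GSI arrays than on both DMSO arrays of each genotype. Pax5 lay between 4.94 and 5.33 and Ebf1 between 3.94 and 4.55 over the 8 arrays. Ighm was at 11.91 and 10.81 in IkL/L GSI against 12.34 and 11.97 in IkL/L DMSO. Those of natural killer and innate lymphoid cells (5 measured) averaged between 4.46 and 5.07, and erythroid ones (3 measured) between 4.21 and 4.50. The part of myeloid, dendritic or B cell RNA in the changes below was not tested. The 3' minus 5' GAPDH control difference, a sign of RNA length, was 3.09 and 3.03 in IkL/L GSI, 1.87 and 2.47 in IkL/L DMSO, 2.20 and 3.08 in WT GSI, and 1.71 and 2.12 in WT DMSO. In such bulk samples a change in the make-up of the sorted cells and a change in RNA per cell cannot be told apart.

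GSI changed 6 of the 10 genes when averaged over both genotypes, 3 in each direction. Cdkn1a rose 4.82-fold, Ccnd2 1.70-fold and Cdk6 1.52-fold, while Ccnd3 fell 2.52-fold, Cdk4 2.14-fold and Cdkn2c 2.04-fold. Ccnd1, Cdkn1b, Cdkn1c and Cdkn2d did not pass. Calls were made by limma at a Benjamini-Hochberg adjusted p below 0.05 over all 18193 genes, with the brightest probe set standing for each gene. Of all genes tested 10.8% rose and 12.5% fell in this comparison. The median log2 change of the 10 members was 0.20, against -0.0022 over all genes. Leaving out single arrays moved this count, and the calls over all genes moved with it. Over the 8 such fits the average log2 difference ran from 0.58 to 0.95 for Ccnd2 and from 0.42 to 0.79 for Cdk6. For Cdkn2c it ran from -1.25 to -0.80. With the GAPDH difference as a covariate 5 genes passed, 4 of them higher (Cdkn1a, Ccnd2, Ccnd1 and Cdkn2d) and 1 lower (Ccnd3). Cdk4, Cdkn2c and Cdk6 thus lost their calls. Of all genes 3683 passed in that fit, against 4235 without the covariate. In each genotype the GAPDH difference was larger on both GSI arrays than on both DMSO arrays. Here and below, such adjusted fits therefore cannot fully tell RNA length and treatment apart. Of the 26 probe sets, 7 rose and 5 fell in the average when all 45037 non-control probe sets were fitted as features, where 6% of all probe sets rose and 8.7% fell.

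**Figure D1:**
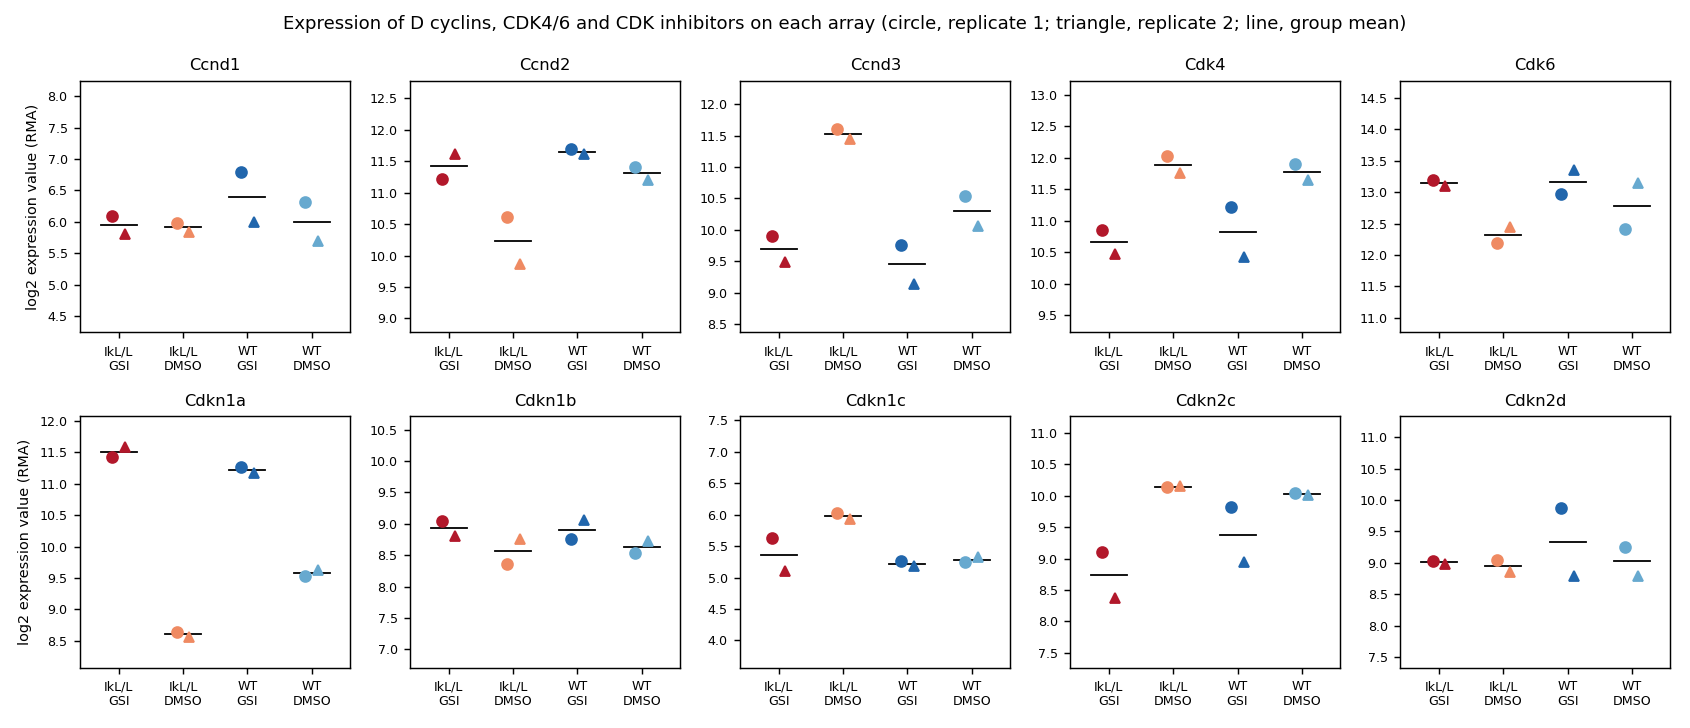
Log2 expression value (vertical axis) of each gene's brightest probe set on the 8 arrays, by group (horizontal axis). Circles are arrays numbered 1, triangles arrays numbered 2 and lines group means. Every panel spans the same number of log2 units. Cdkn1a, Ccnd2 and Cdkn1b are higher, and Ccnd3, Cdk4 and Cdkn2c lower, on both GSI arrays than on both DMSO arrays of the same genotype. Of these, Cdkn1b was not called. How many of all genes had such an order was not counted.

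In IkL/L cells, GSI changed the same 6 genes as in the average, with Cdkn1a, Ccnd2 and Cdk6 higher and Ccnd3, Cdk4 and Cdkn2c lower (over all genes 7.7% rose and 9.09% fell). The changes were 7.45-fold for Cdkn1a, 2.28-fold for Ccnd2 and 1.78-fold for Cdk6 upwards, and 3.54-fold for Ccnd3, 2.65-fold for Cdkn2c and 2.35-fold for Cdk4 downwards. In WT cells 1 of the 10 passed, Cdkn1a, which rose 3.11-fold (2.31% of all genes rose and 4.16% fell). Of the 26 probe sets, 6 rose and 5 fell in IkL/L, against 4.12% and 5.57% of all probe sets, and 1, of Cdkn1a, rose in WT, against 0.397% of all. With the GAPDH difference as a covariate 4 genes passed in IkL/L, Cdkn1a, Ccnd2 and Cdkn2d higher and Ccnd3 lower. In WT 3 passed with it, Cdkn1a, Ccnd1 and Cdkn2d, all higher. Of all genes 3197 in IkL/L and 2276 in WT passed in that fit, against 3055 and 1177 without the covariate. Leaving out single arrays also moved these counts, and the calls over all genes moved with them. Over the 8 such fits the log2 difference in IkL/L ran from 2.82 to 2.98 for Cdkn1a and from 0.81 to 1.56 for Ccnd2. It ran from 0.71 to 0.96 for Cdk6 and from -2.03 to -1.62 for Ccnd3. For Cdk4 it ran from -1.42 to -1.05 and for Cdkn2c from -1.77 to -1.04. In WT the difference of Cdkn1a ran from 1.59 to 1.68, that of Ccnd3 from -1.16 to -0.53 and that of Cdk4 from -1.35 to -0.55.

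Ccnd1 encodes cyclin D1, a D cyclin prominent in many adherent cell types. Its brightest probe set was at log2 values of 6.09 and 5.81 in IkL/L GSI, 5.98 and 5.84 in IkL/L DMSO, 6.79 and 6.001 in WT GSI, and 6.31 and 5.70 in WT DMSO. The arrays overlapped between treatments in each genotype and between genotypes under each treatment, and the value lay little above the array median. The average GSI difference was 0.21 ± 0.21 on the log2 scale (SE; 95% interval -0.27 to 0.69; limma, adjusted p = 0.56). Adjusted for the GAPDH difference it was 0.83 (adjusted p = 0.031). The probe sets 1417419_at and 1417420_at were below the array median on 2 and 6 of the 8 arrays. All 3 Ccnd1 probe sets were higher on the array numbered 1 in 4 of 4 groups, as was the stromal marker level. The same order held for all Cdk4 probe sets, 1415907_at of Ccnd3, 1460291_at of Cdk6 and 1416253_at of Cdkn2d. How many of all probe sets had it was not counted. The part of stromal RNA in the Ccnd1 signal was not tested.

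Ccnd2 encodes cyclin D2. Its brightest probe set, 1455956_x_at, was at log2 values of 11.23 and 11.62 in IkL/L GSI, 10.61 and 9.86 in IkL/L DMSO, 11.69 and 11.61 in WT GSI, and 11.41 and 11.21 in WT DMSO. The IkL/L DMSO arrays were low, and the other 6 lay within 0.48 of each other. GSI raised Ccnd2 in IkL/L by 1.19 ± 0.25 on the log2 scale (limma, adjusted p = 0.014). In WT the difference was 0.34 ± 0.25 (adjusted p = 0.51), with both GSI arrays above both DMSO arrays. The interaction, the IkL/L response minus the WT response, was 0.84 ± 0.35 (adjusted p = 0.81), so a difference between the genotypes' responses was not shown. The lowest group mean, 10.24 ± 0.53 in IkL/L DMSO (SD, n = 2), stood below the other means, which were 11.42 ± 0.28 in IkL/L GSI, 11.65 ± 0.06 in WT GSI and 11.31 ± 0.14 in WT DMSO. The call in IkL/L was lost without IkL/L DMSO replicate 2 (adjusted p = 0.073) or IkL/L GSI replicate 2 (adjusted p = 0.12).

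The other 6 Ccnd2 probe sets were tested in the limma fit over all probe sets. Of the 7 in all, 3 rose in IkL/L: 1455956_x_at, 1434745_at (1.25 ± 0.14 on the log2 scale) and 1430127_a_at (0.87 ± 0.20). The remaining 4 had positive differences that did not pass, from 0.15 for 1416124_at to 1.09 for 1416122_at. On every one of the 7, both IkL/L DMSO arrays were below all 6 other arrays. The probe sets measure a single gene on the same arrays, so they are not independent. How many of all probe sets had this order was not counted. The probe sets 1448229_s_at and 1416123_at stood out for WT GSI replicate 2, at 10.63 and 8.38, against 9.68 and 7.31 on WT GSI replicate 1. The replicates of 1434745_at were close, at 11.18 and 11.19 in IkL/L GSI, 10.02 and 9.86 in IkL/L DMSO, 11.41 and 11.61 in WT GSI, and 10.998 and 11.15 in WT DMSO. It was the single member probe set that passed for IkL/L against WT under DMSO, lower by -1.14 ± 0.14 on the log2 scale (adjusted p = 0.027), where 0.198% of all probe sets were lower.

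Ccnd3 encodes cyclin D3. The brightest of its probe sets, 1415907_at, which represents a RefSeq transcript, was at log2 values of 9.90 and 9.49 in IkL/L GSI, 11.60 and 11.44 in IkL/L DMSO, 9.77 and 9.14 in WT GSI, and 10.55 and 10.05 in WT DMSO. Both GSI arrays were below both DMSO arrays in each genotype, and the IkL/L DMSO arrays were the highest. GSI lowered it by -1.82 ± 0.26 on the log2 scale in IkL/L (limma, adjusted p = 0.0034), and the call held in all 8 fits that left out an array. In WT the difference was -0.85 ± 0.26 (adjusted p = 0.11). The interaction was -0.97 ± 0.37 (95% interval -1.84 to -0.11; adjusted p = 0.81).

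A second Ccnd3 probe set, 1438805_at, made from an expressed sequence tag, ran the other way. It was at log2 values of 9.50 and 8.82 in IkL/L GSI, 7.56 and 7.91 in IkL/L DMSO, 8.90 and 9.40 in WT GSI, and 8.07 and 9.15 in WT DMSO. Its GSI difference in IkL/L was 1.42 ± 0.41 (adjusted p = 0.077 over all probe sets), against -1.82 ± 0.27 for 1415907_at on the same arrays (adjusted p = 0.010). The third, 1444323_at, also from an expressed sequence tag, had a difference of -0.74 ± 0.23 in IkL/L (adjusted p = 0.091). It was at 6.56 and 6.47 in IkL/L GSI, 7.13 and 7.39 in IkL/L DMSO, 6.59 and 7.10 in WT GSI, and 6.66 and 6.63 in WT DMSO. The IkL/L DMSO arrays were thus above the 6 others on 1415907_at and 1444323_at and below them on 1438805_at. The fall of Ccnd3 therefore rests on 1415907_at. With the mean over its 3 probe sets the average GSI difference was -0.21 (adjusted p = 0.33). Where each probe set lies in the gene is not known here.

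**Figure D2:**
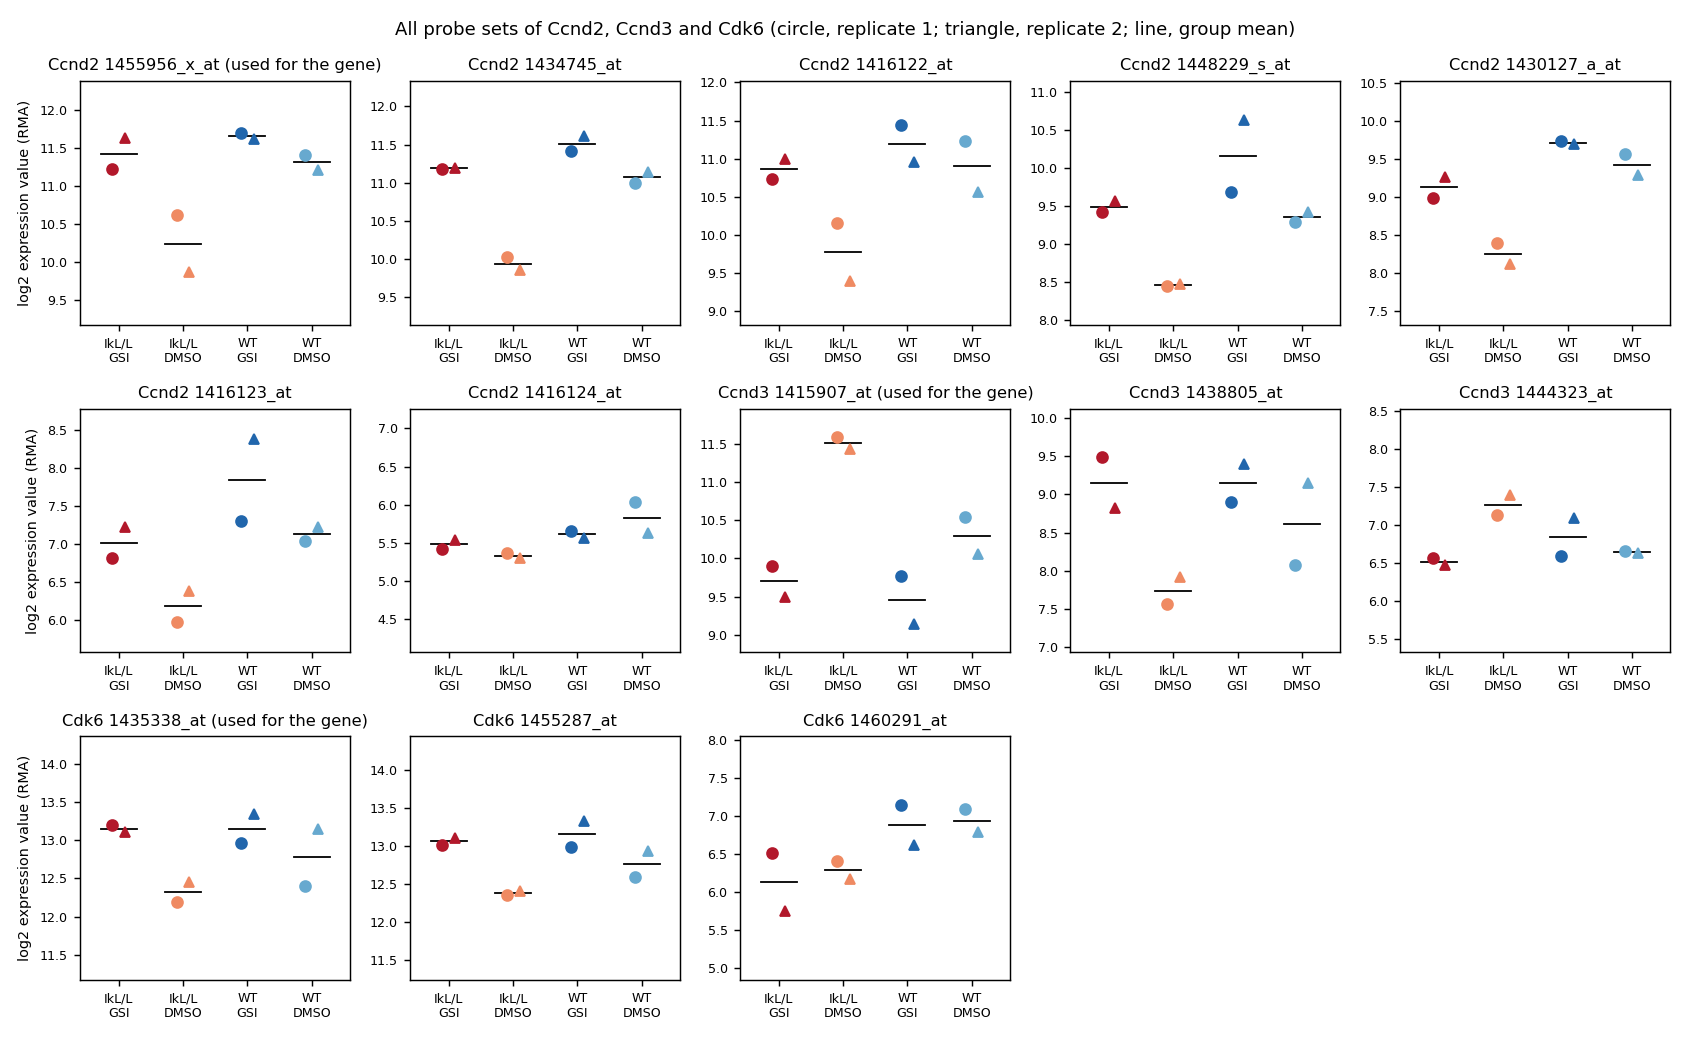
Log2 expression value (vertical axis) of every probe set of Ccnd2, Ccnd3 and Cdk6 by group (horizontal axis). Circles and triangles are the arrays numbered 1 and 2, lines are group means, and every panel spans the same number of log2 units. The Ccnd3 probe sets 1415907_at and 1438805_at run in opposite directions, and the IkL/L DMSO arrays are below all 6 others on each of the 7 Ccnd2 probe sets.

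RefSeq gives Ccnd3 a pair of transcription starts on chromosome 17 (build GRCm38.p6, plus strand). The 250 bases before each are shown because the Ccnd3 probe sets disagreed. They lie at chr17:47504801-47505050 for the first start and chr17:47593217-47593466 for the second, and capitals mark a FOXO motif (GTAAACA, here on the minus strand) at positions -243 to -237 from the first start.
Ccnd3 first start: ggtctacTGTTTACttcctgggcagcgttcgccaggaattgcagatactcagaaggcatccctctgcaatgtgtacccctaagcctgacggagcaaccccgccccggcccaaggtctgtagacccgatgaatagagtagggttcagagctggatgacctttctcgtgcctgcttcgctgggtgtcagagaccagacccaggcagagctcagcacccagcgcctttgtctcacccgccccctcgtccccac
Ccnd3 second start: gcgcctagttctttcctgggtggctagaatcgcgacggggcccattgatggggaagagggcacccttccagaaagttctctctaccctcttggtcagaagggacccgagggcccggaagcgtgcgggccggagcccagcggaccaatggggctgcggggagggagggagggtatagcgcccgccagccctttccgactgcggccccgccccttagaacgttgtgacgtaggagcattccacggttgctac
Of 32851 RefSeq promoter windows searched on both strands, from 250 bases before to 50 after the start, 3.6% held GTAAACA. FOXO3, whose gene rose with GSI (0.98 ± 0.15 on the log2 scale), is a factor that binds such a motif. A match is a description of these letters, not a binding site.

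Cdk4 encodes the kinase that pairs with D cyclins in most cells. Its brightest probe set was at log2 values of 10.84 and 10.47 in IkL/L GSI, 12.03 and 11.76 in IkL/L DMSO, 11.22 and 10.42 in WT GSI, and 11.90 and 11.64 in WT DMSO. The GSI arrays were below the DMSO arrays of both genotypes, and IkL/L overlapped WT under each treatment. GSI lowered Cdk4 by -1.24 ± 0.26 on the log2 scale in IkL/L (limma, adjusted p = 0.016) and by -1.10 ± 0.19 in the average (adjusted p = 0.0041). In WT the difference was -0.95 ± 0.26 (adjusted p = 0.075), and the interaction was -0.28 ± 0.37 (95% interval -1.14 to 0.58). All 3 Cdk4 probe sets fell in IkL/L and in the average. The widest average difference of the 3 was that of 1422440_at, -1.50 ± 0.26, which was at 9.89 and 9.40 in IkL/L GSI, 11.64 and 11.22 in IkL/L DMSO, 10.41 and 9.40 in WT GSI, and 11.39 and 10.85 in WT DMSO. In all 4 groups the array numbered 1 had the higher value for each Cdk4 probe set, as for stroma. With the GAPDH 3' minus 5' difference as a covariate the average difference of the gene was -0.51 (adjusted p = 0.086), and with the stromal level it was -1.22 (adjusted p = 1.09e-05).

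The bases before the Cdk4 start are shown because Cdk4 fell together with Myc, and MYC is known to bind the E-box CACGTG in the Cdk4 promoter. The window is chr10:127063285-127063534 (GRCm38.p6, plus strand), with E-boxes and the core TGGGAA shared by RBPJ and Ikaros in capitals.
Cdk4: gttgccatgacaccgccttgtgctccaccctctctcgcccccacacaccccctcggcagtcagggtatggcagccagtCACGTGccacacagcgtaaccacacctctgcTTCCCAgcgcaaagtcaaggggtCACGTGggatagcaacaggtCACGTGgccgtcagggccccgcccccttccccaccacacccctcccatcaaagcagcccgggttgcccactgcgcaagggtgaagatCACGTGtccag
CACGTG occurred 4 times, at positions -172, -118, -98 and -11 from the start (first base of each), and TGGGAA once, on the minus strand at -141 to -136. CACGTG was found in 7.2% and TGGGAA in 25.6% of the 32851 windows. These matches describe letters, not binding sites in these cells, and the part of MYC in the fall of Cdk4 was not tested. Of the 7 members with a RefSeq entry, Cdk4, Cdk6 and Cdkn2c held CACGTG and Cdk4, Cdkn1a and Cdkn2d held TGGGAA. Counted by window, as the shares of all windows are, CACGTG was in 3 and TGGGAA in 3 of the members' 10 windows. The E2F words TTTCGCGC, TTTGGCGC, TTTCCCGC and TTTGCCGC matched in 0 of the members' 10 windows and in 2.3% of all windows.

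Cdk6, the second kinase partner of the D cyclins, had 2 bright probe sets and a dim one. The brightest, 1435338_at, was at log2 values of 13.20 and 13.10 in IkL/L GSI, 12.19 and 12.45 in IkL/L DMSO, 12.96 and 13.35 in WT GSI, and 12.41 and 13.15 in WT DMSO. The groups were apart in IkL/L and overlapped in WT. GSI raised it by 0.83 ± 0.23 on the log2 scale in IkL/L (limma, adjusted p = 0.044), against 0.38 ± 0.23 in WT (adjusted p = 0.43). The second bright probe set, 1455287_at, was at 13.01 and 13.10 in IkL/L GSI, 12.35 and 12.40 in IkL/L DMSO, 12.98 and 13.32 in WT GSI, and 12.59 and 12.93 in WT DMSO. It rose by 0.68 ± 0.15 in IkL/L (adjusted p = 0.031 over all probe sets), a fit in which 1435338_at did not pass. The dim 1460291_at had a difference of -0.16 ± 0.31, and was at 6.50 and 5.75 in IkL/L GSI against 6.40 and 6.17 in IkL/L DMSO. The average call of 1435338_at (limma, adjusted p = 0.031) was lost in 6 of the 8 fits that left out an array (adjusted p = 0.053 to 0.11, all but those without WT DMSO replicate 2 or WT GSI replicate 1). The call in IkL/L was lost in the 4 fits without an IkL/L array (adjusted p = 0.10 to 0.25). Adjusting for the GAPDH difference brought the average to 0.11 (adjusted p = 0.74), and the mean over the 3 probe sets had an average difference of 0.35 (adjusted p = 0.059).

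Cdkn1a, encoding p21, had the largest change of the 10 genes. Its brightest probe set was at log2 values of 11.42 and 11.58 in IkL/L GSI, 8.64 and 8.56 in IkL/L DMSO, 11.26 and 11.17 in WT GSI, and 9.54 and 9.62 in WT DMSO. No groups overlapped: both GSI groups were high, WT DMSO was lower, and IkL/L DMSO was the lowest. GSI raised Cdkn1a by 2.90 ± 0.15 on the log2 scale in IkL/L (limma, adjusted p = 0.00015) and by 1.64 ± 0.15 in WT (adjusted p = 0.0044). The interaction was 1.26 ± 0.21 (95% interval 0.78 to 1.74), with an adjusted p of 0.18 over all genes, so it did not pass. Its unadjusted p, 0.00031, was the smallest of the 10 genes in that comparison. The interaction was 1.26 when adjusted for the stromal level (limma, adjusted p = 0.038). Adjusted for the GAPDH difference it was 1.27 (adjusted p = 0.030). Of all genes 53 and 64 passed in those fits, against 8 without a covariate. In no other alternative on all 8 arrays did Cdkn1a pass for the interaction. The second probe set, 1421679_a_at, was at 9.49 and 9.88 in IkL/L GSI, 7.70 and 7.21 in IkL/L DMSO, 10.21 and 9.60 in WT GSI, and 8.50 and 8.34 in WT DMSO, and its interaction was 0.74 ± 0.40. It rose by 2.23 ± 0.29 in IkL/L (adjusted p = 0.0072 over all probe sets), and its difference in WT was 1.49 ± 0.29 (adjusted p = 0.056). The IkL/L DMSO arrays were the lowest of the 8 on both probe sets.

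The second of 2 RefSeq starts of Cdkn1a is shown because this gene responded most and TGGGAA, the core that RBPJ and Ikaros share, was found there and not at the first start. The window is chr17:29093519-29093768 (GRCm38.p6, plus strand), and the capitals mark the core on the minus strand at positions -117 to -112. TGGGAA was found in 25.6% of the 32851 windows. The match describes letters, not a binding site, and the part of RBPJ or Ikaros in the Cdkn1a change was not tested.
Cdkn1a second start: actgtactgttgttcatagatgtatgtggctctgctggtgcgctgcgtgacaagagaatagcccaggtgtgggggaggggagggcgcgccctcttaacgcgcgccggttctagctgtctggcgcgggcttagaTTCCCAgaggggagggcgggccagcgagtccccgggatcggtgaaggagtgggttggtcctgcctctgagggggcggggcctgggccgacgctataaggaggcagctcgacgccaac

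Cdkn1b, encoding p27, did not pass in any of the 6 comparisons. Its brightest probe set, 1434045_at, was at log2 values of 9.05 and 8.80 in IkL/L GSI, 8.36 and 8.76 in IkL/L DMSO, 8.76 and 9.06 in WT GSI, and 8.53 and 8.72 in WT DMSO. Both GSI arrays were above both DMSO arrays in each genotype by small margins, and the average difference was 0.32 ± 0.15 (95% interval -0.034 to 0.68; limma, adjusted p = 0.19). The probe set 1419497_at varied widely between replicates, at 6.92 and 6.80 in IkL/L GSI, 6.35 and 7.68 in IkL/L DMSO, 7.59 and 9.21 in WT GSI, and 7.20 and 6.93 in WT DMSO. Cdkn1c, encoding p57, was dim: 5.63 and 5.10 in IkL/L GSI, 6.03 and 5.94 in IkL/L DMSO, 5.26 and 5.18 in WT GSI, and 5.24 and 5.33 in WT DMSO. It lay below the array median on 4 of 8 arrays and was highest in IkL/L DMSO. The GSI difference in IkL/L was -0.62 ± 0.19 (adjusted p = 0.057), and it passed without IkL/L GSI replicate 1 (adjusted p = 0.023).

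Of the INK4 genes, Cdkn2c was at log2 values of 9.10 and 8.37 in IkL/L GSI, 10.14 and 10.15 in IkL/L DMSO, 9.82 and 8.94 in WT GSI, and 10.04 and 10.01 in WT DMSO. The 4 DMSO arrays lay within 0.15 of each other and the GSI arrays were lower and more spread. GSI lowered Cdkn2c by -1.41 ± 0.32 on the log2 scale in IkL/L (limma, adjusted p = 0.021), against -0.64 ± 0.32 in WT (adjusted p = 0.31), with an interaction of -0.77 ± 0.46 (adjusted p = 0.87). The call in IkL/L was lost without IkL/L DMSO replicate 1, IkL/L DMSO replicate 2 or IkL/L GSI replicate 2 (adjusted p = 0.10 to 0.15). Adjusted for the GAPDH difference, the IkL/L value was -0.90 (adjusted p = 0.15). Cdkn2d, by contrast, was at 9.03 and 8.98 in IkL/L GSI, 9.05 and 8.85 in IkL/L DMSO, 9.87 and 8.79 in WT GSI, and 9.25 and 8.79 in WT DMSO. Its groups overlapped, and the average difference was 0.18 ± 0.24 (adjusted p = 0.67). Adjusted for the GAPDH difference it was 0.95 (adjusted p = 0.013).

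**Figure D3:**
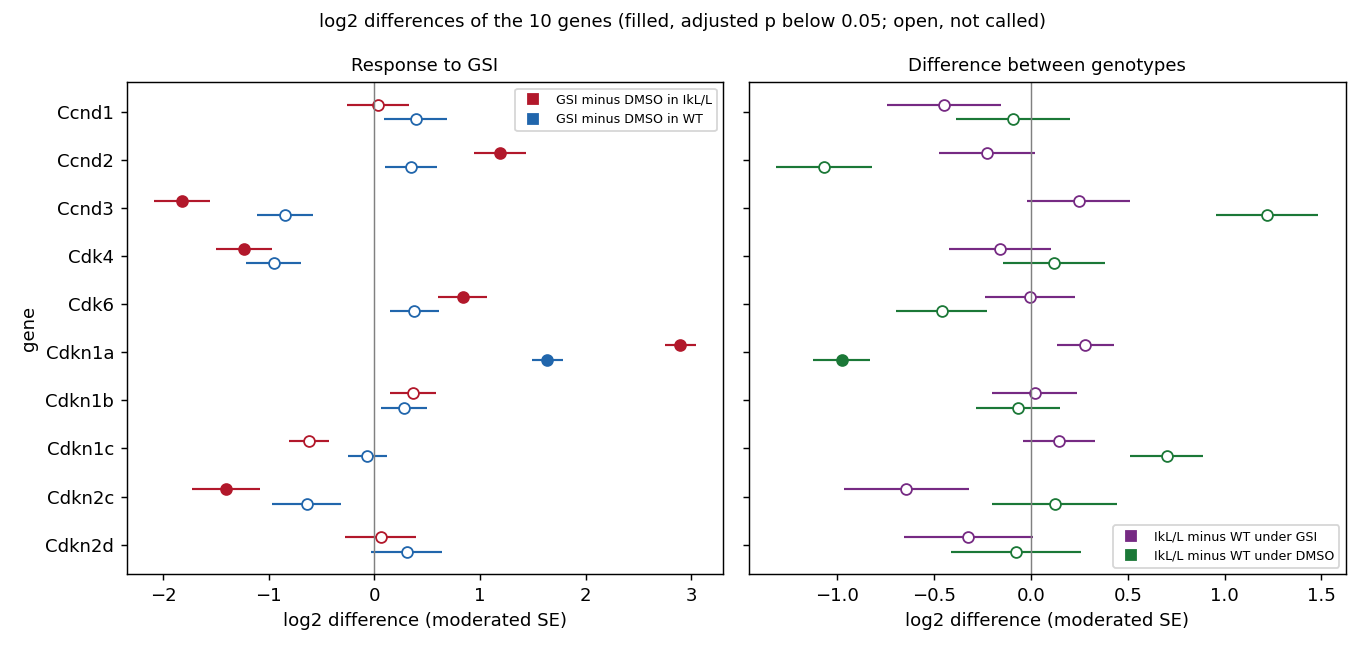
Log2 differences (horizontal axis, bars show the moderated SE) of the 10 genes (vertical axis) for GSI minus DMSO in each genotype, left, and for IkL/L minus WT under each treatment, right. Filled points passed at an adjusted p below 0.05. On the left 6 genes are filled for IkL/L and Cdkn1a alone for WT. On the right only Cdkn1a under DMSO is filled.

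The effect of Ikaros deficiency itself was read under each treatment. Under DMSO 1 of the 10 genes passed: Cdkn1a was lower in IkL/L by -0.98 ± 0.15 on the log2 scale (1.97-fold; limma, adjusted p = 0.018), where 1.03% of all genes were lower and 0.709% higher. Ccnd2 had a difference of -1.07 ± 0.25 (limma, adjusted p = 0.092) and Ccnd3 of 1.22 ± 0.26 (adjusted p = 0.073), and neither passed. The arrays of the genotypes did not overlap for either gene, nor for Cdkn2c, whose difference was 0.12 ± 0.32. How many of all genes were apart in this way was not counted. Cdkn1c had a difference of 0.70 ± 0.19 (adjusted p = 0.15). Each fit that left out one of the 4 DMSO arrays lost the Cdkn1a call (adjusted p = 0.089 to 0.17), and in the fit over all probe sets its adjusted p was 0.051. With the mean over each gene's probe sets Ccnd2 passed (-0.98; adjusted p = 0.042), and Cdkn1a did not (-0.97; adjusted p = 0.059). Ccnd3 passed with the stromal level (1.09; adjusted p = 0.0040) or the GAPDH difference (1.38; adjusted p = 0.0028) as a covariate, and so did Ccnd2 (-1.12; adjusted p = 0.018; and -0.95; adjusted p = 0.024).

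Under GSI none of the 10 genes passed (limma; 0 at an unadjusted p below 0.05, against 1946 of 18193 genes; 1.46% of all genes passed). Nor did any of the 26 probe sets (4 at an unadjusted p below 0.05, against 3850 of 45037; 0.484% of all probe sets passed). The differences ran from -0.64 ± 0.32 for Cdkn2c to 0.28 ± 0.15 for Cdkn1a. For Ccnd2 the difference was -0.23 ± 0.25 (95% interval -0.79 to 0.34) and for Ccnd3 0.25 ± 0.26 (-0.36 to 0.86). The IkL/L DMSO arrays enter both the genotype difference under DMSO and the response to GSI in IkL/L, so the 2 comparisons are not independent. For the difference between the responses, the interaction, no member passed (limma; 3 of 10 at an unadjusted p below 0.05, namely Cdkn1a, Ccnd3 and Ccnd2), and 0.044% of all genes did, with 1089 of 18193 genes at an unadjusted p below 0.05. Of the 26 probe sets 5 had an unadjusted p below 0.05, as did 2270 of the 45037 probe sets in all, and 0% of all probe sets passed.

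Genes around the members, from lists set by name, mostly fell or did not pass. Of 41 such genes measured, 16 fell and 2 rose with GSI in the average, with a median log2 change of -0.35, against 12.5% and 10.8% of all genes and a median of -0.0022. Among pocket proteins and E2F factors, which D cyclin kinases act on, 7 of 13 fell and none rose. Examples were Tfdp1 (-1.45 ± 0.16 on the log2 scale), the dimer partner of E2F factors, E2f1 (-1.12 ± 0.15), the RB relative Rbl1 (-1.04 ± 0.14) and E2f3 (-1.45 ± 0.22). Rb1 itself was at -0.26 ± 0.13 (adjusted p = 0.22). All 5 genes of the cyclin E and A kinase step fell, namely Cdc25a (-1.02 ± 0.11), Ccna2 (-1.002 ± 0.12), Cdk2 (-1.13 ± 0.18), Ccne1 (-1.74 ± 0.37) and Ccne2 (-2.28 ± 0.54). Without WT DMSO replicate 2, IkL/L DMSO replicate 1 or 2, or IkL/L GSI replicate 2, 4 of the 5 did.

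The 2 other INK4 genes did not pass, with Cdkn2a at -0.17 ± 0.09 and Cdkn2b at 0.23 ± 0.19. Nor did the 3 genes of the CDK-activating kinase (limma; 1 at an unadjusted p below 0.05), Cdk7 (-0.35 ± 0.13), Ccnh (-0.09 ± 0.08) and Mnat1 (0.10 ± 0.17). Of 9 genes for the turnover of D cyclins and p27, 2 fell: Cks1b (-0.83 ± 0.07), a cofactor of the ligase that marks p27 for destruction, and the scaffold gene Cul1 (-0.51 ± 0.11). Skp2, the ligase's substrate-binding subunit, was at -1.27 ± 0.43 (adjusted p = 0.068). Without IkL/L DMSO replicate 1 or IkL/L GSI replicate 1 a single turnover gene fell, and without WT DMSO replicate 2, 1 turnover gene and 1 gene of the pocket protein and E2F list rose. Of 9 known regulators of the members' genes, Runx1 (0.73 ± 0.11) and Foxo3 rose. Myc (-2.57 ± 0.40), known to repress Cdkn1a and to activate Cdk4, and the Notch target Hes1 (-1.91 ± 0.34), known to repress Cdkn1b, fell. The part of these regulators in the members' changes was not tested. Without WT GSI replicate 1, 4 regulators fell. Between genotypes none of the 41 genes passed under DMSO (limma; 3 at an unadjusted p below 0.05), where 0.709% of all genes were higher and 1.03% lower. Under GSI Runx1 alone did, higher in IkL/L by 0.92 ± 0.16 (adjusted p = 0.030), where 1.46% of all genes passed.

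**Figure D4:**
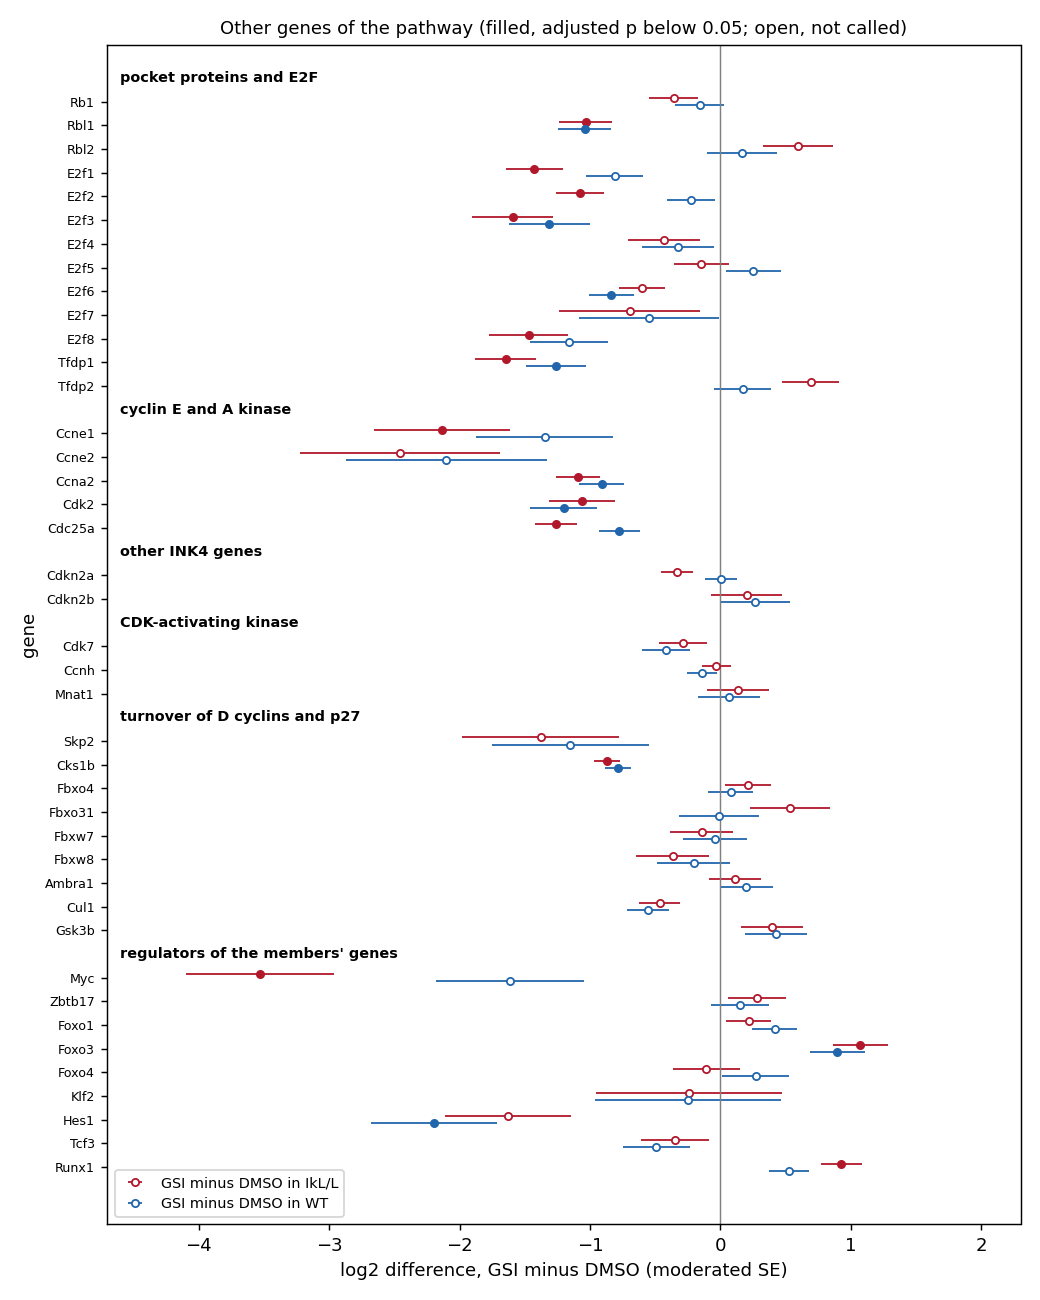
Log2 difference, GSI minus DMSO (horizontal axis, bars show the moderated SE), of 41 other genes of the pathway (vertical axis), grouped by list, in IkL/L (red) and WT (blue). Filled points passed at an adjusted p below 0.05. Of the filled points 12 are lower and 2 higher in IkL/L, and 9 are lower and 1 higher in WT. The 5 genes of the cyclin E and A kinase step all lie left of 0.

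The profiles nearest to the members over the 8 arrays were sought for the 4 members with the largest average response. The search covered the genes tested, without symbols that end in Rik, start with Gm and digits, or are accessions. Likeness was the root mean square difference of mean-centred log2 values. For Cdkn1a, whose own root mean square deviation was 1.19, the nearest were Selenop (0.25), Tox3 (0.26) and Cd53 (0.26). For Ccnd3 (0.83) they were Tnk2 (0.18), Haspin (0.22) and Pter (0.23), and for Cdk4 (0.60) Bccip (0.064), Tsnax (0.090) and Riox2 (0.098). For Cdkn2c (0.63) they were Map4 (0.10), B4galt5 (0.13) and Ankrd49 (0.14).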

How the data were processed

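The deposited values are log2 values that the authors made with RMA, per the submitters' processing notes, which give no version. RMA corrects background, normalizes arrays to shared quantiles and summarises the probes of a set. The values were used as deposited, and groups came from the sample titles. The gene fit left out 64 control probe sets, 932 that name more than 1 gene and 9160 with no listed gene, of 45101 in all. Each of 18193 genes was represented by its probe set of highest mean level. A second fit took all 45037 non-control probe sets.

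The tests used limma 3.58.1 under R 4.3.3, with lmFit on 8 arrays and 4 group terms, then contrasts and moderated variances that followed the mean level (4 residual and 4.11 prior degrees of freedom for genes). Calls were two-sided at a Benjamini-Hochberg adjusted p below 0.05. Values after ± are the moderated SE for differences and the SD of 2 arrays for group means, and intervals are 95% from the moderated t distribution. Precision is limited by the number of arrays. The fits were tested on simulated data.

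The members, the pathway and marker lists and the rules for named genes were chosen with earlier results of these data known. All members, and from each pathway list up to 4 genes with the smallest adjusted p in the average GSI comparison, were named. Rb1, Ccne2 and probe sets singled out by their replicates were added after their values were seen. Of 42 pathway genes 41 were measured, and the other was not analysed here. Promoter sequences are RefSeq's (GRCm38.p6), with entries matched by symbol for 7 of 10 members. Protein sequences were not used here. Plots were drawn with matplotlib 3.10.9 in Python 3.11.15. Alternatives tried are given in the closing section.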

Additional observations from a re-analysis of the deposited data

How the results depend on the processing

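No called value changed sign under any alternative run. Of the 10 genes' values in the 6 comparisons under these alternatives, 1085 kept their side of the threshold, 39 gained a call and 44 lost one. The numbers of genes called were 6 in the average, 6 for GSI in IkL/L, 1 for GSI in WT, 0 for the interaction, 1 for the genotype with DMSO and 0 with GSI. The numbers of probe sets called were 12, 11, 1, 0, 1 and 0 in the same order. Most gene values were thus uncalled in the main fit, and the 44 losses fell on the few called ones.

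Replicate numbers were not shown to pair the samples: the difference between arrays 1 and 2 correlated across probe sets at 0.67 to 0.78 between IkL/L DMSO, WT GSI and WT DMSO, and at -0.28 to -0.15 between IkL/L GSI and each of these. With the replicate number as a block, 3 genes and 6 probe sets passed for GSI in WT, 7 and 15 in IkL/L, 6 and 16 in the average, and 3 and 3 for the genotype under DMSO. The 3 genes in WT were Cdkn1a, higher, and Ccnd3 and Cdk4, lower, and those for the genotype were Ccnd3, higher, and Ccnd2 and Cdkn1a, lower. With the IkL/L GSI numbers exchanged (an alternative chosen after seeing the data), these counts were 2 and 3, 7 and 16, 7 and 16, and 3 and 6. Of all genes 1973 passed in WT with the block and 2594 with the exchange, against 1177 in the main fit. In IkL/L these numbers were 4002, 4705 and 3055, and in the average 5064, 5733 and 4235. For the genotype under DMSO they were 542, 622 and 316.

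For GSI in WT, 4 genes and 10 probe sets passed with the stromal level as a covariate, 3 and 5 with GAPDH, 0 and 0 with only the arrays compared, and 2 and 0 without both WT arrays numbered 1 (also chosen after seeing the data). Quantile normalization once more and no mean-variance trend each gave 2 probe sets. Calls over all features moved too. Of all genes 1177 passed in the main fit, 3023 with the stromal level, 2276 with GAPDH and 1 on the arrays compared. Of all probe sets 711, 4070, 3207 and 0 did, in the same order. For GSI in IkL/L, 17 probe sets passed with the stromal level, where 9842 of all probe sets did, against 4363 in the main fit. For the interaction 1 gene, Cdkn1a, passed with either covariate. Of all genes 53 passed with the stromal level and 64 with GAPDH, against 8 in the main fit. For the genotype under DMSO, the counts were 3 genes and 5 probe sets with the stromal level, 4 and 9 with GAPDH, and 3 and 0 without both WT arrays numbered 1. In that comparison 0 genes passed with every probe set as a feature, 0 probe sets with only the arrays compared and 2 with no trend. Of all genes 316 passed there in the main fit, 795 with the stromal level and 1063 with GAPDH. Of all probe sets 186, 616 and 1435 did, in the same order. Under GSI 2 probe sets passed with the GAPDH difference, where 880 of all probe sets did, against 218 in the main fit. The cause of these shifts was not tested, except that fits on only the arrays compared hold 4 arrays.

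Leaving out each array in turn gave 0 to 3 genes and 0 to 3 probe sets for GSI in WT, 2 to 6 and 1 to 13 in IkL/L, 3 to 6 and 5 to 12 in the average, 0 to 2 and 0 to 1 for the genotype with DMSO. It gave 0 for the interaction and for the genotype with GSI. A group left with 1 array was assumed to vary like the others. In the fits that left out an array, the calls over all genes and over all probe sets moved as well. These ranges therefore do not describe the members alone. No separate fit on the arrays compared exists for the average and the interaction, which use all 8. Averaging a gene's probe sets and the filter at the median level apply to genes only. Levels near the array median (Ccnd1, Cdkn1c) limit what these arrays show for those genes.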
